A study of Mus musculus with 64 samples.

Results

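The chosen regions were 212 windows of 10 kb of the mouse genome in which at least 8 of 30 PiggyBac (PB) tumours carried a transposon insertion and none of 12 PB tail samples did. They were taken from 513 windows hit in at least 8 tumours on the autosomes without chromosome 14, so the absence of tail insertions held for 41.3% of these, and the other 301 windows served for comparison. The windows were thus chosen by measured values, the numbers of PB tumours and PB tails hit, and these are given as a description without a test. The samples were DNA from 64 different mice in 4 groups, namely 30 PB tumours and 12 PB tails of the label genotype IMPB and 11 Sleeping Beauty (SB) tumours and 11 SB tails of the label genotype IMSB. The study describes the tumours as diffuse large B cell lymphomas. All mice belong to ITP lines, which carry transposon copies as an array, and the PB or SB transposase was expressed constitutively from the Rosa26 locus, hence in tail cells as in lymphoid cells. The SB mice were bred from parents homozygous for the Blm m3 allele and carrying ITP1-C or ITP2-M, the PB mice come from an earlier cohort whose Blm genotype and ages are not given in the sources used here, and the background was mixed for all. The PB tumours were sampled as mesenteric nodes or masses (15), other nodes or masses (9) and spleen (6), and the SB tumours as mesenteric nodes or masses (4), spleen (3), samples labelled SI mass or PROX SI (2), a node labelled SAL GL (1) and thymus (1). Sample names were written in a joined form (22 PB tumours, 5 PB tails, all SB tumours and 7 SB tails) or a separated form (the others). No expression was measured, so the cell types in a sample could not be set against their markers, and a tumour sample may hold other cells of the node or spleen. PB tumour 3, a spleen, stood apart with 5827246 reads, where the next highest PB tumour had 316122. It had 175 insertions in 124 of the chosen windows. Without it, 167 of 407 windows hit in at least 8 tumours met the rule.

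The PB and SB transposases cut a transposon out of its array and insert it elsewhere, PB at TTAA and SB at TA. Where an insertion changes a gene in a way that favours growth, the cell that carries it can expand, and so insertions near that gene recur in independent tumours. Insertions also recur without any such advantage, since PB enters open and transcribed chromatin more readily. The ITP transposon carries splice acceptors and polyadenylation signals for both directions, so that an intronic insertion on either strand can cut a transcript short. A comparison of lymphoma with tail is also one of lymphoid with skin, bone and connective tissue, and recurrence through growth and recurrence through open chromatin in lymphoid cells cannot be told apart by it.

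The PB insertions of a window were spread over many TTAA sites, and only a few sites were hit in several tumours. Sites hit in 5 or 6 tumours are printed below with 13 bases of the reference genome (RefSeq, GRCm38) on each side, plus strand, together with 3 sites hit in 4 tumours in genes that recur in the text. Capitals mark the TTAA.
Slamf6, chr1:171921683-171921712, intron 1, 6 tumours: tctttgtttgtttTTAAgacaaaattcaca
Ptprc, chr1:138125376-138125405, intron 3, 6 tumours: tgcatttaagttaTTAAaacactcatgttt
Sp110 and Sp140, chr1:85604445-85604474, 6 tumours: ccaagaaagatcaTTAAgagtaagttcaaa
Laptm5, chr4:130916735-130916764, intron 1, 5 tumours: cgaagactgctttTTAAagcaagcattttg
Rel, chr11:23740330-23740359, 3′ UTR, 4 tumours: tttgaggtctctaTTAAattatccccgtga
Ikzf3, chr11:98475365-98475394, intron 7, 4 tumours: ctaagtttttttcTTAAagacagggtttct
Ikzf1, chr11:11725439-11725468, intron 3, 4 tumours: tctaccctgctctTTAAagagtgtgtgctg
The 30 bases of the Sp110 and Sp140 site occurred 3 times on the kept chromosomes and each of the others once. How the authors placed reads among such copies is not given in the sources used here, so the counts of that window are uncertain.

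The 6 tumours at the Slamf6 site held 436, 92, 73, 25, 9 and 3 reads, 5 of them on the plus strand. Those at the Ptprc site held 111, 19, 18, 7, 6 and 2 reads, on both strands. At both sites the reads thus spanned 1 larger insertion and several small ones. Over all 212 windows, 2077 sites were hit, 1698 of them in 1 tumour, 288 in 2, 71 in 3 and 20 in 4 or more. Sites hit in 2 or more tumours made up 18.2% of the sites of the chosen windows and 18.4% of the 2899 sites of the comparison windows, against 3.67% of the sites hit anywhere by the PB tumours. The chosen and the comparison windows were both selected for insertions in many tumours. A share of shared sites above that of all sites was thus built into the selection and says nothing further about the windows. Of the 379 shared sites, 216 had insertions on both strands. Whether tumours share a site through independent insertions or through reads carried between libraries was not tested. When a position on 1 strand was counted only in the sample with the most reads there, 185 of the 212 windows still met the rule. Deposited positions at 1 TTAA can differ by 1 base and both strands were kept. This setting therefore leaves several tumours at some shared sites and does not test the question.

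The 212 windows held 2577 of the 158262 insertions of the PB tumours, 1.63% of them, in 2.12 Mb. A tumour had insertions in 13 to 131 of the windows (median 62.5), and 0.642% to 2.77% of its insertions lay there (median 1.55%). The median share was 1.64% in the mesenteric tumours, 1.58% in the other nodes and 1.19% in the spleens, and the ranges overlapped. It was 1.60% in the tumours with joined and 1.44% in those with separated names. Each window held 8 to 41 insertions (median 11). The number of TTAA sites per window was 28 to 136 (median 68), close to that of the comparison windows (16 to 138, median 74) and above the median of 57 over all windows of these chromosomes.

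Near the threshold the windows were many. Exactly 8 tumours were hit in 81 chosen windows and 9 in another 59, while 21 windows were hit in 12 or more. Just outside the rule lay 177 windows with 7 tumours and no tail, and 59 with 8 tumours and 1 tail. The share without a tail insertion was 41.3% among the 196 windows hit in 8 tumours, 45.0% among the 131 hit in 9, 40.2% among the 127 hit in 10 or 11 and 35.6% among the 59 hit in 12 or more. The tails held 48533 insertions in all, so that none in a window allows a share of up to 0.00618% (3 insertions). The share in the tumours was above this limit in 147 of the 212 windows, those with 10 insertions or more, and at or below it in 65. For these 65 the depth of the tails cannot show a difference. The count of 147 is no support either, since the rule chose windows with many tumours hit and no tail insertion. Intervals and limits cover counting error only, and the tail limit pools the tails without the differences between them. PCR reads also have no molecular identifiers. In 125 windows a tail insertion lay in a directly neighbouring window, and 127 of the 158 genes that contained chosen windows had a tail insertion elsewhere in the gene body.

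Reads set the strongest limit. An insertion of the table has at least 2 reads, and 38.8% of the insertions in the chosen windows had 10 or more, against 36.2% over all PB tumours and 71.4% over all PB tails. With 10 reads as minimum in tumours and tails, 17 windows met the rule and 13 of them were among the 212. These 13 were 3 Ptprc windows and 1 each at Slamf6, Rel, Ikzf3, Cd74, Mef2c, Zcchc7, Pou2af1, Tox, Ctcf and the Sp110 and Sp140 pair. The other 4 had tail insertions with fewer reads.

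Most of the recurrence lay inside genes. A protein-coding gene overlapped 196 of the windows, another gene 9, and none 7. Protein-coding gene bodies contained 89.3% of the insertions, against 84.7% in the comparison windows, 56.95% of all PB tumour insertions and 53.01% of all PB tail insertions. Of the 2577 insertions, 2292 lay in introns, 30 in 3′ UTRs, 11 in coding sequence and 1 in a 5′ UTR of the transcript used. The first intron took 42.8% of the intronic insertions (43.2% in the comparison windows). The median distance from the start of the transcript was 26.8 kb, farther than the 13.2 kb of the comparison windows, and 26.5% of the insertions in gene bodies lay within 10 kb of it, against 43.3%. Adjacent windows joined into 184 loci, 21 of them longer than 1 window. At least 2 windows lay in 26 genes, and 12 genes had 3 or more, namely Ptprc (8), Tox (5), Mef2c and Ikzf3 (4 each), and Basp1, Zcchc7, Tnfaip8, Ikzf1, Ebf1, Ncoa3, Tec and Zbtb20 (3 each).

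**Figure D1:**
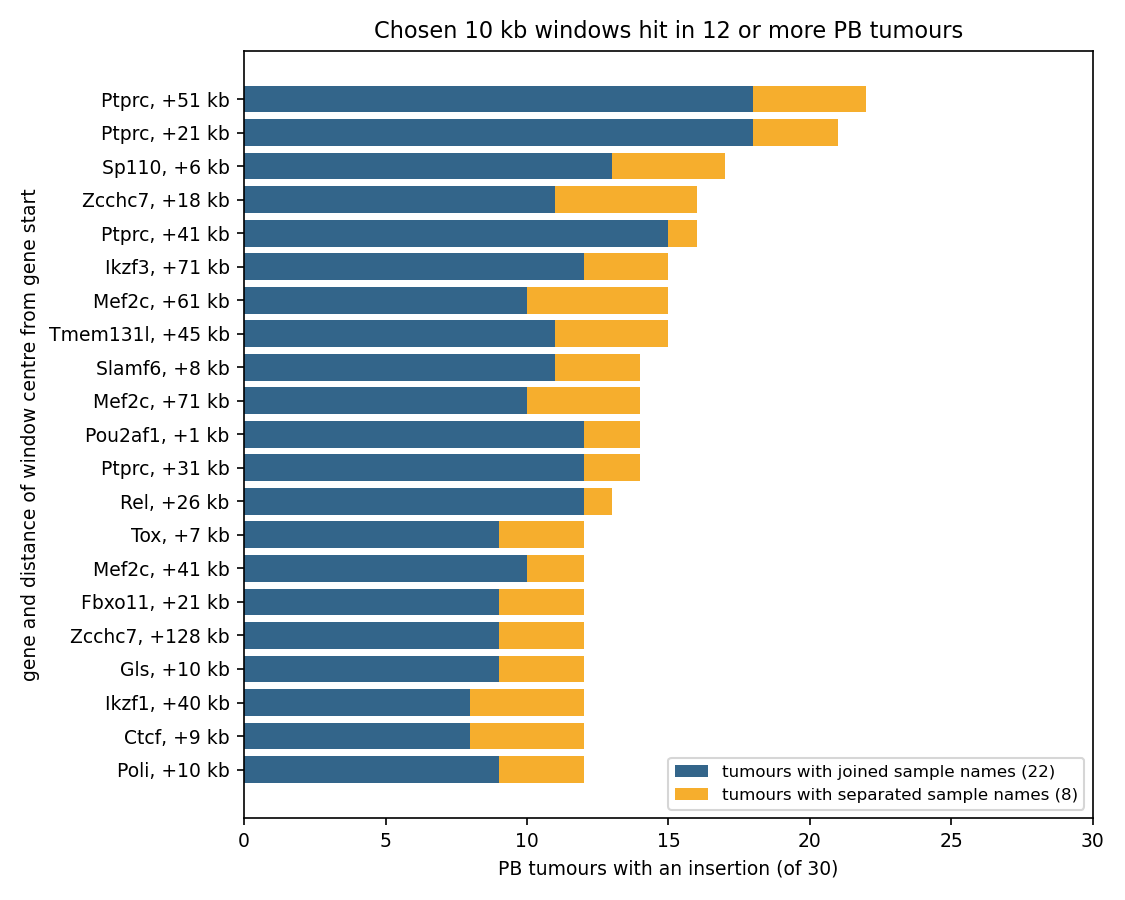
The 21 chosen windows hit in 12 or more PB tumours. Bars give the number of tumours with an insertion (of 30), split by the form of the sample name, and labels give the gene and the distance of the window's centre from the gene start in kb. The top 2 windows, both in Ptprc, were hit in 22 and 21 tumours, and each window was hit in tumours of both name forms.

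Ptprc encodes CD45, the receptor tyrosine phosphatase on the surface of white blood cells that sets the activity of Src family kinases below the antigen receptors. Its 8 windows held 166 PB insertions in 28 of 30 tumours. The window at chr1:138120000-138129999 (introns 2 and 3) was hit in 22 tumours with 41 insertions, and that at chr1:138150000-138159999 (intron 2) in 21 tumours with 33. The most covered insertion of a tumour had 2 to 1001 reads in the first window (median 10.5) and 2 to 2980 in the second (median 13). Thus 14 of 22 and 12 of 21 tumours reached 10 reads there, and only 3 and 2 reached 100. An insertion of 97691 reads in the window at chr1:138130000-138139999 was in PB tumour 3, and the highest of the other tumours there had 113. Strands were mixed, with 19 of 41 and 17 of 33 insertions on the plus strand. Over the whole gene body (chr1:138062859-138175756) the PB tumours had 0 to 25 insertions each (median 6, 197 in all), and the 12 PB tails had 1 insertion together.

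The 6 B-lineage transcription factors with chosen windows had 16 windows and 234 insertions in 28 tumours. Ikzf3 and Ikzf1 encode Aiolos and Ikaros, zinc finger proteins that guide lymphocyte development. At Ikzf3 the window at chr11:98470000-98479999 (introns 6 and 7) was hit in 15 tumours, with 2 to 3096 reads on the most covered insertion (median 12). The tumours next to the highest had 939 and 28 reads, so that few tumours carried a large insertion. Over the whole Ikzf3 gene, 23 of 30 PB tumours and 1 of 12 PB tails had an insertion. At Ikzf1 the windows were hit in 12, 8 and 8 tumours, and the most reads on any insertion were 126, 77 and 53. The first pair of these values was in PB tumour 3, and the highest of the other tumours there had 25 and 24. Mef2c encodes a MADS box factor that acts downstream of the B cell receptor. Its 4 adjacent windows (chr13:83540000-83579999) were hit in 12, 8, 15 and 14 tumours, mostly in intron 2, and the whole gene was also hit in 9 of 12 PB tails. Pou2af1 encodes OBF-1, a coactivator of octamer factors required for germinal centres. Its window at the gene start (chr9:51210000-51219999) was hit in 14 tumours, with 5 to 7037 reads on the most covered insertion (median 12). Of its 22 insertions, 15 lay in intron 1 and 7 outside the gene. Ebf1, an early factor of B cell identity, had windows with 9, 8 and 8 tumours in intron 6, and Foxp1 1 window with 8. The whole Ebf1 gene was hit in 11 of 12 PB tails and the whole Foxp1 gene in 12 of 12, so that there the absence from tails held for the windows and not for the genes.

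Slamf6 encodes a SLAM family receptor, and its window at chr1:171920000-171929999 (intron 1) was hit in 14 tumours with 29 insertions. The most covered insertion per tumour had 7 to 945 reads (median 24), and 12 of 14 tumours reached 10 reads. Cd74 encodes the invariant chain of class II antigen presentation. Its window (chr18:60800000-60809999) was hit in 11 tumours, with 8 to 3308 reads on the most covered insertion (median 631). In 9 of these 11 tumours that insertion had at least 100 reads, the most among 12 windows compared in this way, and neither PB tails nor SB samples had an insertion in the gene. Cxcr5, the receptor that guides B cells into follicles, Ms4a1, which encodes CD20, and Cd44, an adhesion receptor, had 1 window each, hit in 8, 8 and 9 tumours. Their most covered insertions had 204, 16 and 7 reads, and that of Cxcr5 was among the 1% with the most reads in its tumour. Windows at Slamf1 and Cd84, neighbours of Slamf6, were hit in 9 tumours each, and Laptm5, a lysosomal protein of lymphocytes, in 9 with up to 65038 reads in PB tumour 3 and up to 1034 in the others. These 3 were chosen for mention after their values were seen, as was Basp1, whose 3 adjacent windows were hit in 11, 11 and 9 tumours.

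Rel encodes c-Rel, an NF-kB subunit of B cells. Its 2 windows, chr11:23730000-23739999 and chr11:23740000-23749999, held 35 insertions in 16 tumours, and 26 of the 35 lay in the 3′ UTR of the last exon. In the second window the most covered insertion of the 13 tumours had 2 to 80948 reads (median 316), and 8 of 13 reached 100. The highest value was again in PB tumour 3, followed by 3590. Fas encodes a death receptor that triggers apoptosis. The window at chr19:34310000-34319999 was hit in 11 tumours, 4 insertions lying in intron 2 and 9 in intron 7, with 2 to 17907 reads on the most covered insertion (median 24). The neighbouring Fas window was also hit in PB tails and is not among the 212. Gna13 encodes the G protein subunit that keeps germinal centre B cells confined. Its window (chr11:109380000-109389999, intron 2) was hit in 10 tumours, 4 of them with 1878 to 23695 reads. Cdkn2c, an inhibitor of cyclin-dependent kinases, had 1 window hit in 10 tumours, and 10 of its 15 insertions lay in intron 2. Grb2, an adaptor of receptor signalling, had 1 window in the gene and 1 nearest to it, hit in 9 and 8 tumours. A window in Rasa2, a GTPase-activating protein of Ras, was hit in 9.

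Windows in 4 genes of the chromatin list were also among those chosen. A window in Ctcf, which encodes an architectural DNA-binding protein, was hit in 12 tumours, and windows in the histone deacetylase gene Hdac9, in Jarid2 and in the histone methyltransferase gene Kmt2c were hit in 10, 9 and 8. A window in Elmo1, which acts in cell migration, was hit in 8. Over the whole genes the PB tails hit numbered 5 of 12 for Ctcf, 11 for Hdac9, 7 for Jarid2, 2 for Kmt2c and 8 for Elmo1, so that the absence from tails held for these windows and not for the genes. Tox, a factor better known from T cell development, had 5 windows hit in 8 to 12 tumours. Zcchc7, an RNA surveillance factor whose gene lies beside the B-cell factor gene Pax5, had a window at chr4:44770000-44779999 hit in 16 tumours, all 24 insertions in intron 2. Reads were low there, 84 at most, and 9 of 12 PB tails had insertions elsewhere in Zcchc7. The window of Sp110 and Sp140, which encode nuclear body proteins and overlap on opposite strands, was hit in 17 tumours. All its 28 insertions lay in both gene bodies, but 25 of them lay outside the Sp110 transcript used and 3 in an intron of it. Tmem131l, which encodes a membrane protein that acts in thymocyte proliferation, had a window that was hit in 15 tumours with 2 to 70 reads.

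Gene lists are described here by counts only. Of all 19811 protein-coding genes on these chromosomes, 0.787% overlapped a chosen window and 1.25% a comparison window. Among 37 B-lineage transcription factors these were 6 and 4 genes, among 29 B-cell receptor genes 3 and 5, among 25 NF-kB genes 1 and 3, and among 25 genes of cell death, p53 and cell cycle 2 and 1. Among 32 chromatin regulators they were 4 and 4, among 27 genes of lymphocyte homing and adhesion 4 and 2, among 29 genes of the Ras, MAPK, PI3K and mTOR pathways 1 and 6, and among 22 JAK, STAT and cytokine receptor genes 0 and 1. Of 20 T-lineage genes, 1 (Tox) met a chosen window and 1 a comparison window, and of 25 epidermal and dermal genes none met either. The lists hold genes of different length, and list and background were not matched for it. They were also chosen with earlier results of these data known, so their counts are no support for the windows.

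**Figure D2:**
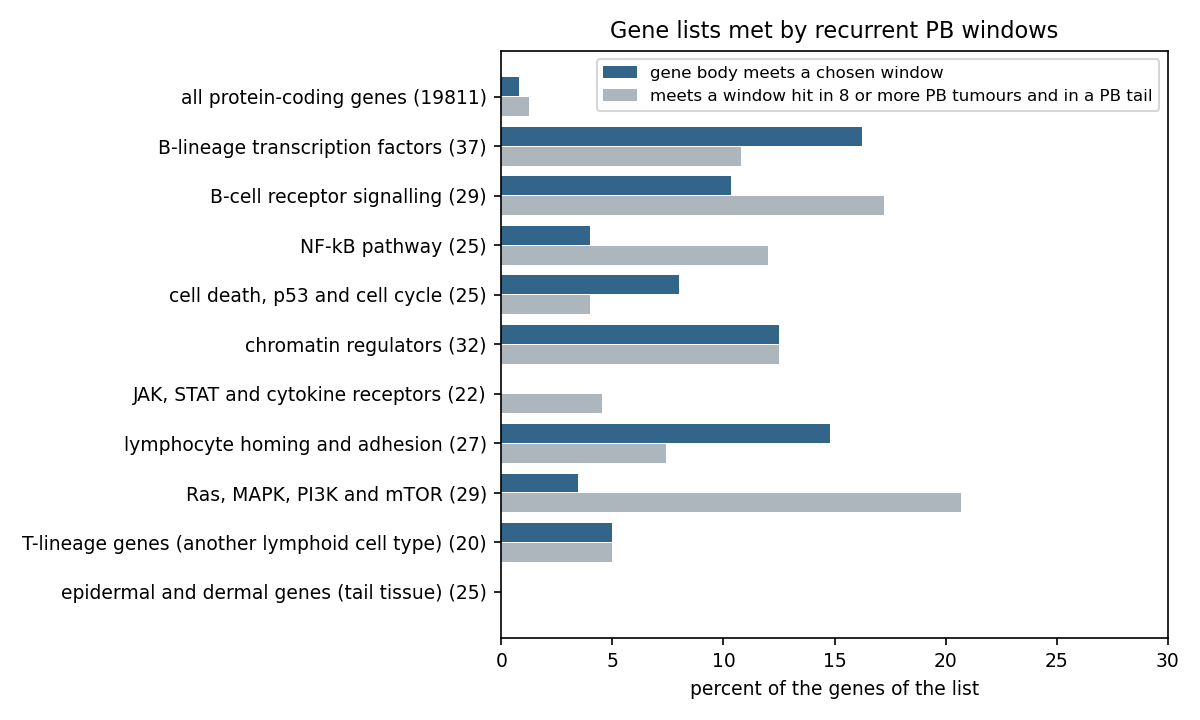
Percent of the genes of each list, with the list's number of genes on the kept chromosomes in brackets, whose body overlapped a chosen window (blue) or a window hit in 8 or more PB tumours and in a PB tail (grey). B-lineage transcription factors had the highest blue bar (6 of 37 genes), Ras, MAPK, PI3K and mTOR genes the highest grey bar (6 of 29), and epidermal and dermal genes had neither.

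Strand asked whether insertions in a window pointed 1 way, a measure the rule did not use. Over all chosen windows 50.5% of the insertions were on the plus strand, and 51.3% of those in a gene body were on the strand of the gene. For each window, the most covered insertion of each tumour was counted once (exact binomial test, two-sided, Benjamini-Hochberg adjustment over 513 windows). The test called 1 window (0.195%), and 0 of the 212. Among these 513 windows even 13 of 13 tumours on 1 strand did not pass. Windows hit in 13 or fewer tumours could thus not be called, and 140 of the 212 were hit in only 8 or 9. For them the 0 does not show an absence of strand bias. At an unadjusted p under 0.05 there were 7 of the 212, or 17 of 513 (3.31%). The smallest p was that of the second Rel window, with the minus strand, the strand of the gene, in 13 of 13 tumours (0% plus, exact 95% interval 0 to 24.7%, p = 2.4e-04, adjusted p = 0.063). With all insertions of each tumour it had 4 of 24 on the plus strand (exact binomial test, adjusted p = 0.20), and over the alternatives the adjusted p ranged up to 0.33. In the Fas window the most covered insertions of 11 of 11 tumours were on the minus strand, opposite to the gene (interval 0 to 28.5%, exact binomial test, adjusted p = 0.13). This did not hold for the gene, since over the whole Fas body 49 PB tumour insertions were on the plus strand and 21 on the minus strand. With all 13 insertions of this Fas window counted, it was called (exact binomial test, adjusted p = 0.042), the only chosen window for which this held. The 13 came from 11 tumours, and insertions of 1 tumour are not independent, so this call is no support. With at least 10 reads the window had 7 of 7 on the minus strand and adjusted p = 1 (exact binomial test). Ncoa3 (0 of 8 plus), Msi2 (8 of 8 plus) and Coro2a (1 of 10 plus) came next, and none of them passed (exact binomial tests, adjusted p = 0.50, 0.50 and 0.85). The first Rel window had 1 of 10 on the plus strand, and over both Rel windows 22 of the 26 insertions in the 3′ UTR were on the minus strand. In the Ptprc, Slamf6 and Ikzf3 windows both strands were common.

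**Figure D3:**
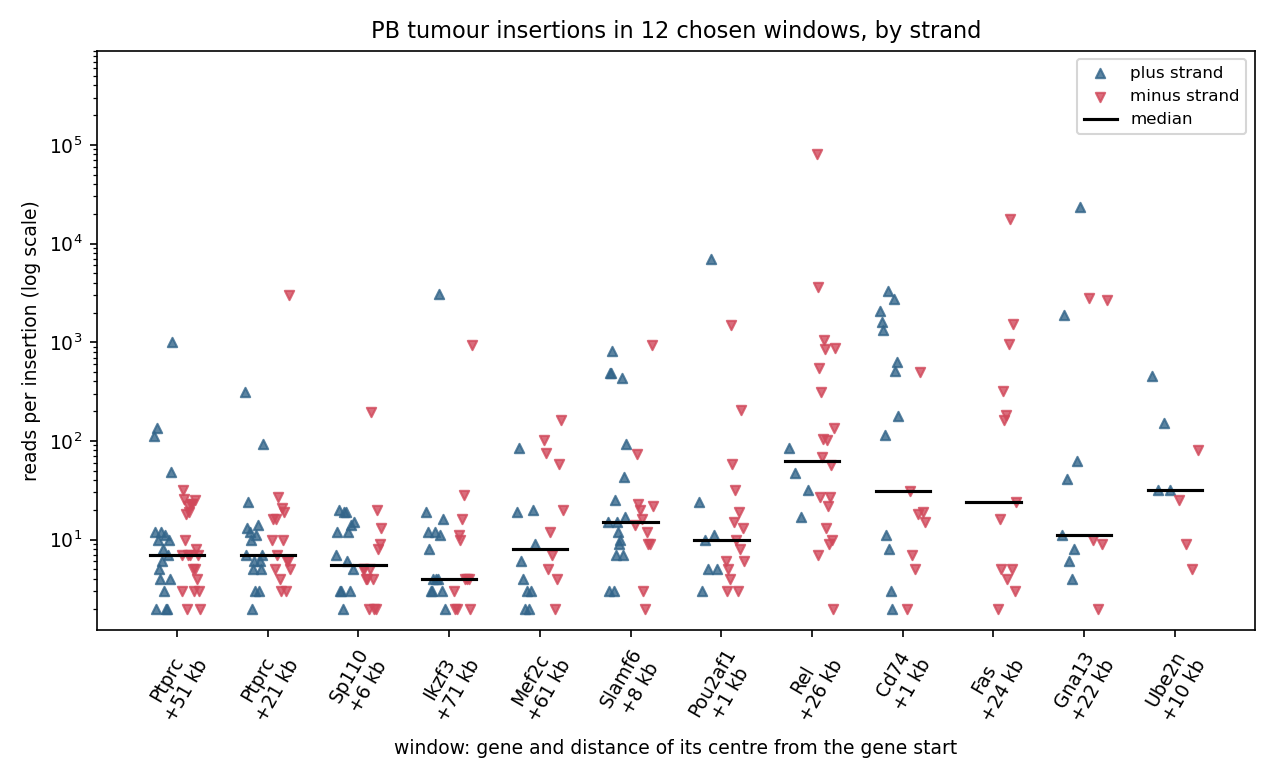
Reads per PB tumour insertion (log scale) in 12 chosen windows, each labelled by gene and distance of its centre from the gene start. Triangles pointing up are plus strand and those pointing down minus strand insertions, the sideways offset only separates points, and the black line is the median over insertions. Rel and Fas stand out by strand, with 20 of 24 and 13 of 13 insertions on the minus strand, and the highest insertions were in Rel (80948 reads, 3590 without PB tumour 3), Gna13 (23695), Fas (17907) and Pou2af1 (7037).

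Reads asked whether the insertions of a window had more reads in their tumours than other insertions. The mean log2 reads of the insertions of a tumour in a window were taken minus the mean over all insertions of that tumour, and tested against 0 over tumours (limma, 513 windows). This called 2 windows (0.390%), and 0 of the 212. At an unadjusted p under 0.05, limma had 18 of the 212, 10 higher and 8 lower, against 36 of 513 (7.02%) in either direction and 5.07% higher. The median difference was 0.10 over the chosen windows and 0.14 over all 513. Cd74 was higher by 4.10 ± 0.87 (SE, n = 11 tumours, limma adjusted p = 0.0502) and the second Rel window by 3.67 ± 0.83 (SE, n = 13, limma adjusted p = 0.0502), both just short of the threshold. Slamf6 followed with 1.74 ± 0.45 (n = 14, limma adjusted p = 0.13), Ube2n, a ubiquitin-conjugating enzyme, with 2.12 ± 0.56 (n = 8, limma adjusted p = 0.21) and Cd44 with -1.49 ± 0.41 (n = 9, limma adjusted p = 0.21). With the highest insertion of a tumour in place of its mean, Cd74 (limma adjusted p = 0.0018), Rel (0.0080) and Slamf6 (0.046) passed. A maximum set against a mean rises with the number of insertions per tumour, which was above 1 in these 3 windows (21 in 11 tumours, 24 in 13 and 29 in 14), so this setting is no support for them. With ranks, Rel (limma adjusted p = 4.4e-04) and Ube2n (0.021) passed, and Cd74 did not (0.11). The range of the adjusted p over the alternatives was 4.4e-04 to 0.18 for Rel and 0.0018 to 0.22 for Cd74. Without PB tumour 3, which held the Rel insertion of 80948 reads, Rel was at 3.01 and Cd74 at 4.10 (limma adjusted p = 0.044 for both). Ube2n was then at 1.83 (n = 7, limma adjusted p = 0.40). Its highest insertion, with 452 reads, was in PB tumour 3, against 153 in the others.

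Over the windows together, the median reads per insertion were 7 in the chosen windows, 7 in the comparison windows and 6 over all PB tumour insertions. Within tumours the median of the chosen windows was higher than that of all other insertions in 13 of 30, lower in 5 and equal in 12. Among the 1% of insertions with the most reads in their tumour, 72 lay in chosen windows, 2.79% of the insertions there. The share was 0.963% outside them and 3.68% in the comparison windows, and it was larger inside than outside the chosen windows in 23 of 30 tumours. These 72 insertions lay in 44 windows. Cd74 had them in 7 tumours, Rel in 6 and 3 in its 2 windows, Fas and Gna13 in 4 each and Pou2af1 in 3. The most covered insertion of a tumour lay in a chosen window in 3 of 30 tumours, at Gna13 (23695 reads) and in the 2 Rel windows (3906 and 3590 reads).

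Tumour site was compared for each window as well (Fisher's exact test, two-sided, 15 mesenteric against 15 other tumours). The test called 0 of 513 windows (0%), and 6 (1.17%) had an unadjusted p under 0.05, 4 of them chosen windows. The smallest p among the chosen windows was at Tmem131l, hit in 11 mesenteric and 4 other tumours (Fisher's exact test, p = 0.027, adjusted p = 1). For the spleen against all others the count was also 0. With these numbers of tumours only large differences could be seen. In the 140 chosen windows hit in 8 or 9 tumours, not even a complete split between mesenteric and other tumours could pass alone. For these windows the count of 0 does not show that the sites were alike.

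The SB mice are other animals with another transposase, and their insertions played no part in the choice of windows. The 212 windows held 150 of the 43849 insertions of the SB tumours and 88 of the 50807 insertions of the SB tails. Per sample the share was 0.179% to 0.548% in the 11 SB tumours (median 0.373%) and 0.0864% to 0.306% in the 11 SB tails (median 0.182%), and the groups overlapped. The windows contain 0.0958% of the TA sites. In the comparison windows, with 0.139% of the TA sites, the shares were 0.600% to 0.920% in the tumours (median 0.731%) and 0.321% to 0.633% in the tails (median 0.546%). The SB tumours all have joined names, and within this form the SB tails had a median of 0.183% (n = 7) in the chosen windows. The 8 Ptprc windows held 41 of the 150 tumour insertions and 3 of the 88 tail insertions. Without them the median was 0.263% in the tumours and 0.168% in the tails, and the ranges overlapped more. Of the 212 windows, 101 had no SB insertion, 42 had them in SB tumours alone, 36 in SB tails alone and 33 in both. Insertions of 3 or more SB tumours were found in 9 windows, and of 3 or more SB tails in 2.

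**Figure D4:**
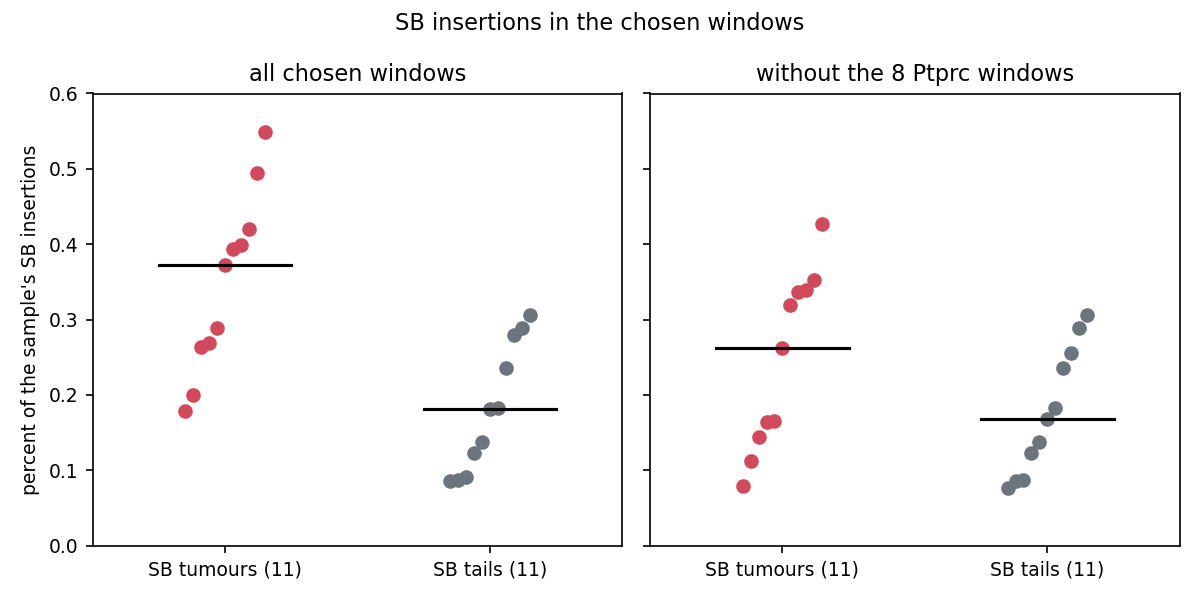
Percent of each SB sample's insertions that lay in the 212 chosen windows (left) and in these without the 8 Ptprc windows (right), 1 point per sample, with the group median as a line. The tumours lie at 0.179% to 0.548% and the tails at 0.0864% to 0.306% on the left, and the groups overlap more on the right.

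The windows with the most SB tumours hit were all in Ptprc, with 6, 5, 5, 5 and 4 of 11 SB tumours and with 1, 0, 0, 0 and 0 of 11 SB tails. Over the whole Ptprc gene each of the 11 SB tumours had insertions, 1 to 13 each (median 4, 61 in all), and 4 of 11 SB tails had 1 each. Few of the other windows held enough SB insertions for a test. The test on 10 kb windows with 10 or more insertions (edgeR quasi-likelihood test, tumours against tails, 22 samples) kept 23 windows, 2 of them called (8.70%, 4.35% higher in tumours), and none of the 212 was among the 23, since a chosen window held at most 8 SB insertions. In 50 kb around each window, 17 of the 212 had 10 insertions and 10 were called in edgeR, all higher in tumours, against 79 of 716 windows (11.0%, 8.66% higher in tumours) overall. All 10 reached the minimum through the SB tumours, with 15 to 36 insertions there and 1 to 3 in the tails, so a call in this direction was built into the selection and the count is no support for the windows. The 50 kb of neighbouring windows also share insertions, so these 10 are 3 loci. Of them, 7 were Ptprc windows, with log2 differences of 2.71 to 3.64, for instance 3.09 ± 0.58 (SE) at chr1:138100000-138109999 with 36 insertions in 11 SB tumours and 3 in 3 SB tails. The other 3 were 2 Slamf6 windows and 1 Fas window. Around Slamf6 all 15 SB tumour insertions came from SB tumour 11, and around Fas 18 of 23 did. Without this tumour 7 of the 17 were called, those of Ptprc, while Slamf6 had a log2 difference of -0.80 (edgeR adjusted p = 0.62) and Fas of 0.61 (edgeR adjusted p = 0.79). Over whole genes, Ebf1 had 57 insertions in 8 SB tumours and 9 in 5 SB tails, Mef2c 18 in 6 and 6 in 4, Tox 14 in 7 and 4 in 4, and Rel 6 in 2 and 0. Of these, 24 and 20 of the 57 in Ebf1 were in 1 tumour each, and 11 of the 18 in Mef2c were in 1 tumour. Ikzf3 had 2 in tumours and 4 in tails, and Pou2af1 and Cd74 had no SB insertion in any of the 22 samples. These whole-gene counts were not tested.

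**Figure D5:**
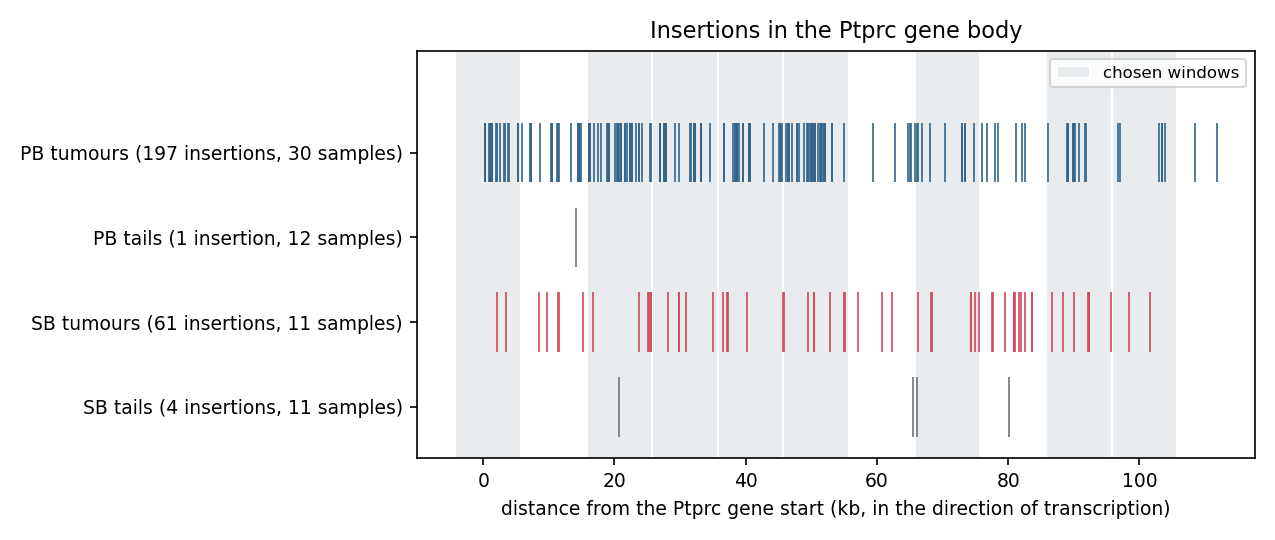
Insertions in the Ptprc gene body by distance from the gene start (kb, in the direction of transcription), 1 line per insertion, in PB tumours (197 insertions, 30 samples), PB tails (1, 12), SB tumours (61, 11) and SB tails (4, 11). Grey bands are the 8 chosen windows. PB and SB tumour insertions lie along the whole gene, inside and outside the bands.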

How the data were processed

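The authors deposited 1 table with a line per transposon insertion of 64 samples, giving chromosome, position, strand and the count of reads, as raw counts. Junctions were amplified by splinkerette PCR from both transposon ends and sequenced on a MiSeq. Positions are on mm10 per the labels. Aligner, caller, read filters and the meaning of the strand column are not given in the sources used here. A further per-sample column (1), a coverage scaled to the highest of its sample, was not used.

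Lines of 1 sample and position were merged. The sex chromosomes and chromosome 14, which the rule leaves out, were removed. Insertions kept per sample numbered 764 to 10886 in PB tumours, 2060 to 7423 in PB tails, 761 to 8792 in SB tumours and 2540 to 7149 in SB tails, with 55699 to 5827246 reads. Genes, transcripts and sequences were those of RefSeq on GRCm38, checked by the TTAA at 98.8% of the positions in the chosen windows. A window was named by a protein-coding gene it overlaps, else another gene, else the nearest. The windows named are the 12 with the most tumours, the 5 with the smallest strand and reads p, the 5 with the most SB tumours hit and all at genes of the lists, 54 in all. The sequence and values of 1 shared site are not reported here.

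The members and gene lists were chosen with earlier results of these data known. Samples were grouped by their labels, each from a different mouse. Tests were exact binomial, Fisher's exact, limma and edgeR, each over all windows. They were run on simulated data with large changes only. For edgeR the simulation used the 50 kb counts, so the main test on 10 kb windows was not covered. Python 3.11.15, scipy 1.17.1, pandas 2.3.3, numpy 2.4.6, R 4.3.3, edgeR 4.0.16, limma 3.58.1 and DESeq2 1.42.0 were used.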

Additional observations from a re-analysis of the deposited data

How the results depend on the processing

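Windows with no PB tail, out of all with enough PB tumours, were 204 of 497 with positions moved to the nearest TTAA. They were 214 of 510 on a grid shifted by 5 kb, 17 of 34 with at least 10 reads and 72 of 186 with 10 or more tumours. With joined names and 6 or more tumours they were 547 of 858, and in windows of 20 kb 371 of 1228. The joined setting kept fewer tails, so absence from tails was easier to meet and its count is not comparable. Leaving out each tail in turn gave 216 to 232 of 513. Some settings were chosen after seeing the data. Leaving out the tumour with the most reads gave 167 of 407, and that with the fewest insertions 207 of 501. Counting a position only in its most covered sample gave 192 of 433.

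For the SB test, all windows called were 2 of 23, and 8 without TMM, 0 with DESeq2, 1 with Fisher's exact test, 59 of 241 with 5 or more insertions and 79 of 716 in 50 kb. Chosen windows called were 6 of 12 with 5 or more insertions and 10 of 17 in 50 kb, counts that the minimum favours since windows reach it through the tumours (11 of the 12 were higher there). Without SB tumour 11 (chosen after seeing the data) they were 1 and 7, and all windows called 8 and 60. The edgeR fit with at least 1 insertion per window could not be fitted. Strand calls were 1 with all insertions (3 over all windows), a setting that treats the insertions of 1 tumour as independent. Reads calls were 3 with the highest insertion (5 over all windows), 2 with ranks (4) and 2 without the tumour with the most reads (4). The top 1% measure was larger in the chosen windows in 23 of 30 tumours, the median reads in 13. For Tmem131l the difference in the share of tumours hit, mesenteric minus other, turned from 0.467 to -0.0667 with at least 10 reads. The causes of these changes were not tested. No paired analysis was possible because no mouse gave more than 1 sample.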

Other observations

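Under the same rule, chromosome 14 had 175 windows hit in 8 or more PB tumours, 11 of them in no PB tail, and the X chromosome had 7 and 4. The study left out the chromosome of the donor locus and describes a tendency of transposons to insert close to that locus. How far such insertion adds to the chromosome 14 count was not tested. The reverse pattern was also common among PB samples, since 324 of the 1303 windows hit in 3 or more tails had no tumour insertion.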
